A study of Mus musculus with 3 samples.

Results

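The 42 genes described here were chosen by name as genes of endoplasmic reticulum (ER) folding, ER stress and the amino acid response. The rule used no signal, but earlier results of these arrays were known when the genes were named. The arrays held 97 probe sets, the groups of short oligonucleotides that read 1 transcript, for 41 of them, out of 18193 genes named by a single symbol. Gdf15 was not analysed here. By role, 15 were folding factors, 4 served ER-associated degradation, 5 were stress sensors and their transcription factors, and 17 of 18 were Atf4 targets and other amino acid and stress response genes. The cells were PDL-L2, a single immortalised line from mouse periodontal ligament (PDL), grown in serum and moved to differentiation medium with ascorbic acid and beta-glycerophosphate. In siENG BMP-2, cells had received a SMARTpool siRNA mixture against endoglin (Eng), an accessory receptor for TGF-β family ligands, and 48 h later rhBMP-2 at 250 ng/ml for 12 h. In siCont BMP-2, cells had received the non-target pool and the same rhBMP-2. In siCont vehicle, cells had received the non-target pool and vehicle for 12 h. Each condition was read on 1 array, so no difference below had a replicate check and no p-value is given. Effects of endoglin loss, of that siRNA pool, of the single culture and of the array cannot be told apart, and no array held siENG cells without BMP-2. In bulk RNA, fewer cells with a transcript and less of it per cell cannot be told apart either.

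All values are linear signal intensities as deposited, or log2 ratios of them. The siENG array was brighter than siCont BMP-2 as a whole, with a median log2 ratio of 0.21 over probe sets past the signal limit, so every ratio below is relative to that median unless called deposited. The same median was 0.01 for siCont BMP-2 over vehicle and 0.22 for siENG BMP-2 over vehicle. A gene was read by its probe set of highest mean log2 signal, and was kept in a comparison if its brighter signal reached 23.0, the median of all probe sets. All 41 measured genes had all 3 signals past that limit, and the lowest was 33.2. The Bacillus control probe sets, which have no transcript in these cells, reached at most 13.1. Eng itself read 108 with siENG BMP-2, 299 with siCont BMP-2 and 286 with vehicle. Of 13 measured PDL fibroblast markers 9 were kept, with Col1a2 at 10255 with siENG BMP-2, 9773 with siCont BMP-2 and 9569 with vehicle, whereas Aspn, Thy1, Dcn and Lum read 18.0 or less. Leukocyte markers had 4 of 9 kept, endothelial markers 1 of 6 and epithelial markers 3 of 7. The summed leukocyte signal was 287 with siENG BMP-2, 215 with siCont BMP-2 and 220 with vehicle. The leukocyte markers kept were Cd68, Csf1r, Lyz2 and Cd14. In siENG BMP-2 over siCont BMP-2, Cd68 had a log2 ratio of 1.02, a ratio of 2.03. Csf1r had a log2 ratio of 0.39, Lyz2 0.28 and Cd14 -0.77. Ptprc, Cd3e, Cd79a and Itgam were at or below the Bacillus maximum on all 3 arrays.

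Secretory and membrane proteins fold in the ER, where chaperones of the heat shock protein families, the lectins calnexin and calreticulin, and disulphide isomerases act on them. When unfolded proteins accumulate, 3 sensors respond: Ern1 (IRE1) splices the Xbp1 transcript, Atf6 is cleaved to a transcription factor, and Eif2ak3 (PERK) phosphorylates eIF2α. Phosphorylation of eIF2α, which other kinases also bring about during amino acid shortage, lowers general translation while favouring translation of Atf4, the factor that switches on amino acid synthesis, transport and stress genes. Fibroblasts of ligament and bone secrete large amounts of collagen and depend on this machinery. Arrays read transcript levels, and neither splicing of Xbp1 nor phosphorylation was measured.

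Promoters of these genes carry known response elements, and 4 were searched on both strands from 250 bases before to 50 bases after each annotated start in RefSeq (GRCm38.p6), counting the start as 0. Windows were matched for 36 of the 41 measured genes, 39 windows in all. Atf6, Cars, Hyou1, Manf and Slc7a5 had none matched. The ER stress element (ERSE: CCAAT, then any 9 bases, then CCACG), bound by Atf6 with NF-Y, was found in 0.119% of all 32851 promoters. Of the 39 windows, 8 held it (20.5%). Those of Hspa5, Hsp90b1 and Canx are printed as those of 3 central chaperones, with the CCAAT and CCACG ends or their complements in capitals.
Hspa5 (chr2:34771990-34772089, plus strand): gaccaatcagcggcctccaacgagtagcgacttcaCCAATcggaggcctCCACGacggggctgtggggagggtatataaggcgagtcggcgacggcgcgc
Hsp90b1 (chr10:86705525-86705664, minus strand): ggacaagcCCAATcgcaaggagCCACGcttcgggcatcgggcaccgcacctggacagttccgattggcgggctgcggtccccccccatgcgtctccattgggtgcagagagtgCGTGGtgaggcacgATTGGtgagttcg
Canx (chr11:50325774-50325853, minus strand): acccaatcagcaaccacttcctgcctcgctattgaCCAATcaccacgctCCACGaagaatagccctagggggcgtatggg
The stretch of Hsp90b1 held 2 matches, 1 on each strand.

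ERSE-II (ATTGG, any 1 base, then CCACG) was in 0.0365% of all promoters and in those of Herpud1 and Dnajb11. The Atf4-type element (CARE, TGATGNAAN) was in 3.95% of all promoters and in 6 of the 39 windows (15.4%), of Asns, Atf3, Chac1, Herpud1, Trib3 and Vldlr. The stretches printed are those of Herpud1, which held both elements, and of 3 Atf4 targets, with the matched letters or their complements in capitals.
Herpud1 (chr8:94386299-94386398, plus strand): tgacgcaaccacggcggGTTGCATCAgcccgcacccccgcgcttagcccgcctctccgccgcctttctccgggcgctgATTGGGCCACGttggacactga
Atf3 (chr1:191183384-191183483, minus strand): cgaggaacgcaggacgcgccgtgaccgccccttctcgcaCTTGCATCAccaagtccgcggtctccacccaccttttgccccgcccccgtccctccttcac
Asns (chr6:7693210-7693289, minus strand): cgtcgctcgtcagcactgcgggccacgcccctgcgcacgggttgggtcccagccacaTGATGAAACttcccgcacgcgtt
Chac1 (chr2:119351012-119351101, plus strand): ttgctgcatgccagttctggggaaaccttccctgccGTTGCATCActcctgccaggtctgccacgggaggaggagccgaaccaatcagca
The hypoxia element (ACGTG or GCGTG) was common, in 43.8% of all promoters and 28 of the 39 windows (71.8%), and can overlap the CCACG end of ERSE. At least as many matches as in Ero1a were found in Ppp1r15a and Atf4, whose windows held none of ERSE, ERSE-II or CARE. The promoter of Ero1a, the gene with the highest ratio of the 41, held 3 matches, in capitals, and likewise none of the other elements.
Ero1a (chr14:45318573-45318722, minus strand): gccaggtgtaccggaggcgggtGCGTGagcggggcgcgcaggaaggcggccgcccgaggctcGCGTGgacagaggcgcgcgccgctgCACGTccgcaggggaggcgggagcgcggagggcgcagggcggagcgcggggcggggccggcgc
A match describes letters only, and binding was not measured.

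Across the 41 genes, 5 had a relative ratio of 2 or more in siENG BMP-2 over siCont BMP-2, against 2.32% of all 10854 genes kept. They were Ero1a, Herpud1, Ddit3, Ddit4 and Atf3. None was at 0.5 or less, against 2.7% of all genes. A further description, chosen after the data had been seen, set each ratio against the robust SD of log2 ratios among probe sets of like signal, a spread that holds real differences and is no replicate error. By it, 12 genes lay above 2 robust SDs (4.49% of all genes), namely those 5 with Canx, Creld2, Atf4, Atf5, Asns, Psat1 and Sesn2. Dnajb9 alone lay below -2 robust SDs (5.02%). The median log2 ratio of the 41 genes was 0.33, with a range of -0.66 to 3.03, and that of all genes 0.03. The ratio was above 0 for 30 of the 41 genes, against 53.7% of all genes. With ratios as deposited, 6 genes stood at 2 or more (4.03% of all genes) and none at 0.5 or less (1.66%). As deposited, the siENG array gave the highest of the 3 signals for 38 of the 41 genes, while the siCont BMP-2 array gave the highest for Calr, Dnajb9 and Dnajc3. That array was brighter as a whole, by a median log2 ratio of 0.21 over siCont BMP-2 and 0.22 over vehicle for siENG. A high count is thus partly built in, and the same count over all genes was not made. The other genes of the 41 with a negative relative ratio over siCont BMP-2 had a positive one as deposited, that is, they were higher with siENG by less than the array as a whole.

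**Figure D1:**
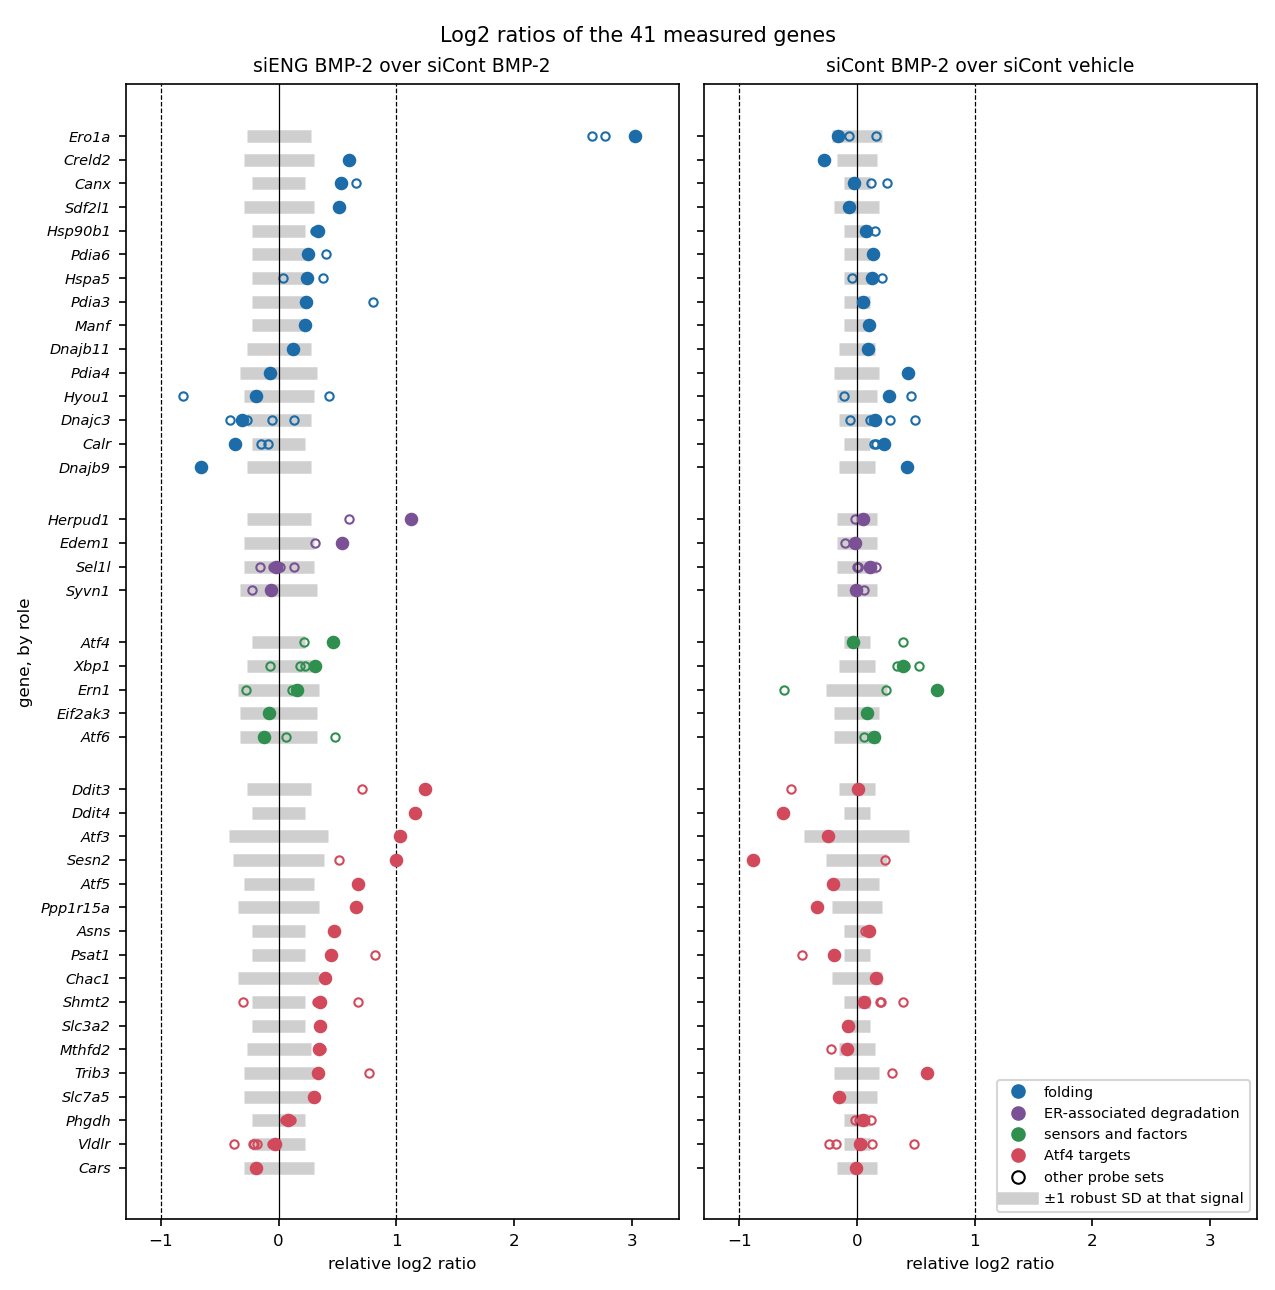
Relative log2 ratios of the 41 measured genes by role, in 2 panels: siENG BMP-2 over siCont BMP-2, then siCont BMP-2 over siCont vehicle. Filled points are the brightest probe set, open points other probe sets past the signal limit, grey bars ±1 robust SD of probe sets of like signal, and dashed lines ratios of 2 and 0.5. In the first comparison 5 genes lie past the line at 2, led by Ero1a at 3.03, and in the second none does.

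**Figure D2:**
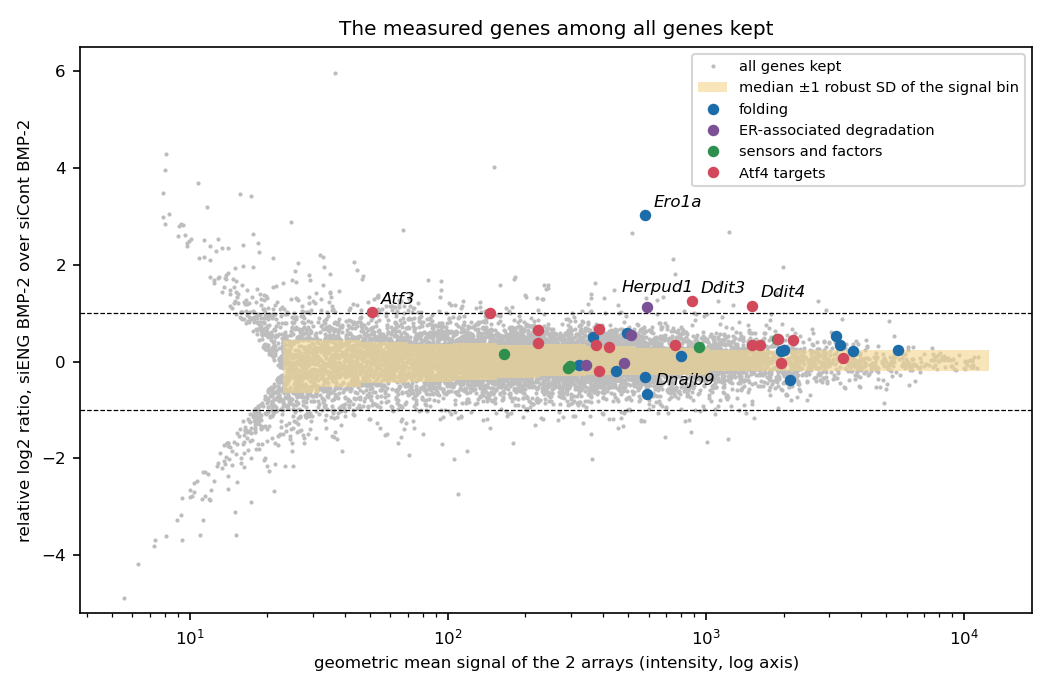
Relative log2 ratio (siENG BMP-2 over siCont BMP-2) against the geometric mean signal of both arrays (intensity, log axis), with all genes kept in grey, the 41 genes coloured by role and a band of ±1 robust SD per signal bin. Of the 41 genes 36 lie within a ratio of 2 either way, and Ero1a stands at 3.03.

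Among the folding genes, the oxidase Ero1a stood apart from all the others. Ero1a, which reoxidises protein disulphide isomerase, read 1792 with siENG BMP-2, 190 with siCont BMP-2 and 211 with vehicle. Only the siENG array was high, and the relative ratio over siCont BMP-2 was 8.17 (log2 3.03, robust SD 0.27). Its other 2 probe sets gave 1228 with siENG BMP-2, 168 with siCont BMP-2 and 175 with vehicle, and 1330 with siENG BMP-2, 168 with siCont BMP-2 and 149 with vehicle, with log2 ratios of 2.66 and 2.77.

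Its partner isomerases did not show a difference of that size. Pdia3, which works with calnexin and calreticulin, had a log2 ratio of 0.23, Pdia6 0.25 and Pdia4 -0.07. Of 14 other thiol oxidoreductases and their relatives in the ER, all kept, none had a ratio of 2 or more or 0.5 or less. Over all genes the shares were 2.32% and 2.7%. The median of the 14 was 0.23. Txndc5, an ER thioredoxin-domain protein, was the farthest from 0 of these, at 544 with siENG BMP-2, 910 with siCont BMP-2 and 886 with vehicle (log2 -0.95). Tmx1 (0.53), Txndc11 (0.52) and Erp44 (0.52) stood on the other side.

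The main chaperones read far above the signal limit on every array and differed little. Hspa5 (BiP), the ER's HSP70 chaperone and regulator of the 3 sensors, read 6490 with siENG BMP-2, 4735 with siCont BMP-2 and 4308 with vehicle (log2 0.25 over siCont BMP-2, robust SD 0.22). Hsp90b1 (GRP94) read 3981 with siENG BMP-2, 2730 with siCont BMP-2 and 2570 with vehicle (0.33). Both were highest on the siENG array, within 2 robust SDs of the other genes.

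The paired lectin chaperones stood on opposite sides of 0. Canx (calnexin) read 4134 with siENG BMP-2, 2482 with siCont BMP-2 and 2510 with vehicle, a log2 ratio of 0.53, with 0.54 and 0.66 from its other probe sets. Calr (calreticulin) read 2010 with siENG BMP-2, 2249 with siCont BMP-2 and 1908 with vehicle, a log2 ratio of -0.37, with -0.09 and -0.15 from the others. As deposited, the siENG array was the highest for Canx. For Calr it lay between the siCont arrays in the brightest probe set, but was the highest in the others.

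The HSP40 co-chaperones of Hspa5 included the lowest ratio of all 41 genes. Dnajb9 (ERdj4) read 506 with siENG BMP-2, 692 with siCont BMP-2 and 512 with vehicle, a log2 ratio of -0.66 (robust SD 0.27). The siCont BMP-2 array was the high one, and the siENG and vehicle arrays were near each other. Dnajc3 (p58IPK) had a log2 ratio of -0.31, and its other 4 probe sets ran from -0.42 to 0.13, the last being the second brightest. Dnajb11 (ERdj3) was at 0.12.

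Among the remaining folding genes, Creld2, an ER stress-inducible protein, read 653 with siENG BMP-2, 374 with siCont BMP-2 and 450 with vehicle (log2 0.60). Sdf2l1, which works with Dnajb11, had a log2 ratio of 0.51, the secreted ER stress factor Manf 0.22 and the nucleotide exchange factor Hyou1 -0.19, with 0.43 and -0.82 from its other probe sets. Over the 14 folding genes without Ero1a the median was 0.23, with 9 above 0 and a range of -0.66 to 0.60. The 8 genes with an ERSE match (Calr, Canx, Creld2, Dnajc3, Hsp90b1, Hspa5, Pdia6 and the degradation gene Syvn1) had a median of 0.25 and 5 above 0. Over all genes 53.7% were above 0, with a median of 0.03. Calr, Dnajc3 and Syvn1 were below 0, but Syvn1 was above 0 as deposited and the second brightest probe set of Dnajc3 gave 0.13. The part of the element in these ratios was not tested.

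Among the genes of ER-associated degradation, which returns misfolded proteins to the proteasome, 1 of 4 passed a ratio of 2. Herpud1, a membrane component of the degradation complex, read 940 with siENG BMP-2, 372 with siCont BMP-2 and 357 with vehicle. The siENG array was the high one, and the relative ratio over siCont BMP-2 was 2.19 (log2 1.13, robust SD 0.27). Its other probe set read 596 with siENG BMP-2, 341 with siCont BMP-2 and 343 with vehicle, with a log2 ratio of 0.60, and the mean over both, 0.86, was short of a ratio of 2. Edem1, which draws mannose-trimmed glycoproteins into degradation, read 664 with siENG BMP-2, 395 with siCont BMP-2 and 398 with vehicle (0.54, and 0.31 from its other probe set). Syvn1 (HRD1), the ubiquitin ligase, read 359 with siENG BMP-2, 326 with siCont BMP-2 and 325 with vehicle (-0.07), and its adaptor Sel1l had a log2 ratio of -0.02. Only Herpud1 of the 4 lay past 2 robust SDs.

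The sensors themselves were near level between siENG BMP-2 and siCont BMP-2. Eif2ak3 read 310 with siENG BMP-2, 284 with siCont BMP-2 and 267 with vehicle, a log2 ratio of -0.08. Ern1 read 188 with siENG BMP-2, 146 with siCont BMP-2 and 90.3 with vehicle (0.16), and Atf6 read 301 with siENG BMP-2, 283 with siCont BMP-2 and 254 with vehicle (-0.12).

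The factors downstream of them stood slightly higher in siENG BMP-2. Xbp1 read 1128 with siENG BMP-2, 787 with siCont BMP-2 and 597 with vehicle (0.31). Atf4, the factor translated when eIF2α is phosphorylated, read 2389 with siENG BMP-2, 1501 with siCont BMP-2 and 1527 with vehicle (0.46), with 0.22 from its other probe set, and of the 5 genes only Atf4 passed 2 robust SDs.

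Most of the Atf4 targets and stress response genes had higher values with siENG BMP-2 than with siCont BMP-2. Of 17 measured, 15 had a log2 ratio above 0 (53.7% of all genes), 7 lay above 2 robust SDs (4.49%) and 3 reached a ratio of 2 (2.32%), with a median of 0.39. As deposited, all 17 had their highest signal on the siENG array, but that array was brighter as a whole. Cars and Vldlr, among the 17, had relative ratios below 0, and the same count over all genes was not made.

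The transcription factors Ddit3 and Atf3 were among those at 2 or more. Ddit3 (CHOP), a factor of the apoptotic arm of ER stress, read 1468 with siENG BMP-2, 535 with siCont BMP-2 and 530 with vehicle. Both siCont arrays gave nearly the same signal, and the relative ratio over siCont BMP-2 was 2.37 (log2 1.25, robust SD 0.27). Its second probe set read 128 with siENG BMP-2, 67.8 with siCont BMP-2 and 99.4 with vehicle, with a log2 ratio of 0.70, and the mean over both, 0.98, was just short of a ratio of 2. Atf3, a factor induced by many stresses, read 78.3 with siENG BMP-2, 33.2 with siCont BMP-2 and 39.1 with vehicle (ratio 2.04, log2 1.03, robust SD 0.42). Its ratio passed 2 narrowly, and its siCont signals were not far above the limit of 23.0. Atf5 read 525 with siENG BMP-2, 284 with siCont BMP-2 and 325 with vehicle (0.68).

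Ddit4 and Sesn2, both inhibitors of the growth kinase complex mTORC1, shared an order of the arrays in which siCont BMP-2 was lowest. That order was not particular to them. As deposited, siCont BMP-2 was lowest for 10 of the 17 Atf4 targets, Atf3, Atf5 and Ppp1r15a among them, and vehicle was lowest for 7. Ddit4 (REDD1) read 2432 with siENG BMP-2, 943 with siCont BMP-2 and 1452 with vehicle, a relative ratio of 2.23 (log2 1.16). Sesn2 (sestrin 2) read 221 with siENG BMP-2, 95.9 with siCont BMP-2 and 176 with vehicle, with a ratio of 1.99, just short of 2. For Ddit4 and Sesn2, and for the others with that order, the low reading on the siCont BMP-2 array enters the ratio. Against vehicle, the log2 ratio of siENG BMP-2 was 0.52 for Ddit4 and 0.10 for Sesn2. The second Sesn2 probe set read 151 with siENG BMP-2, 91.3 with siCont BMP-2 and 76.9 with vehicle, so vehicle was lowest there.

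**Figure D3:**
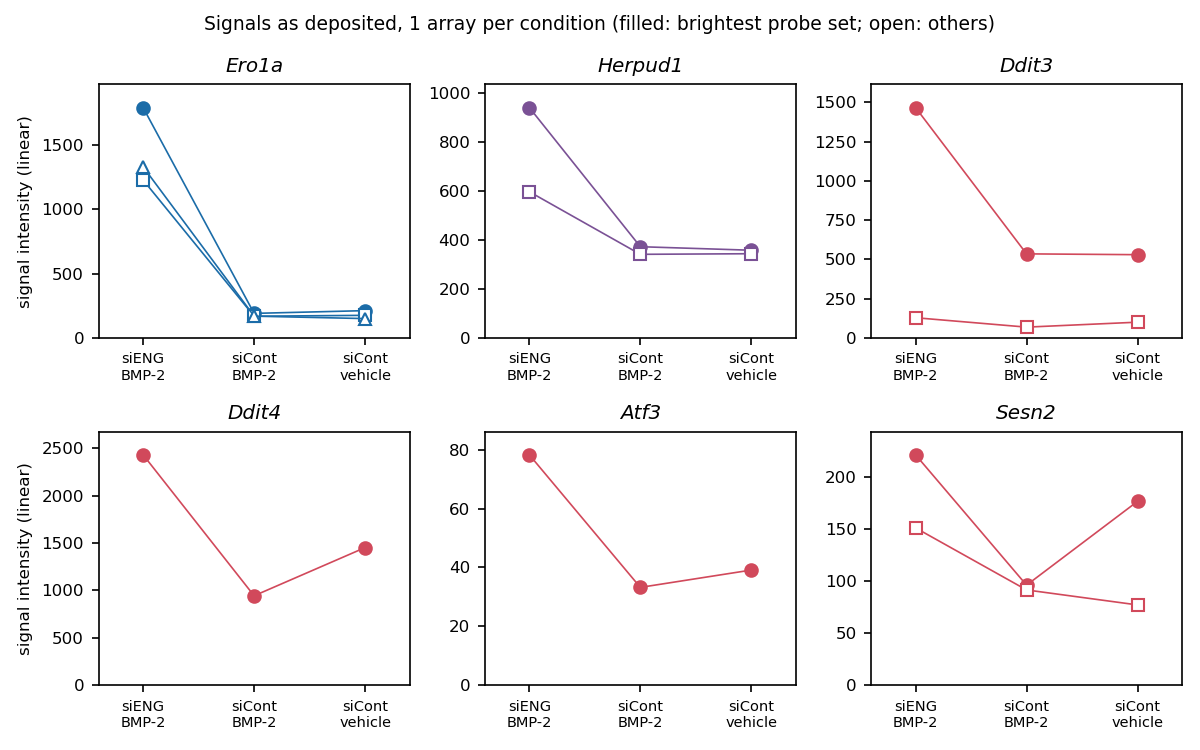
Signals as deposited (linear intensity, axes from 0) of Ero1a, Herpud1, Ddit3, Ddit4, Atf3 and Sesn2 on the siENG BMP-2, siCont BMP-2 and siCont vehicle arrays, with filled points for the brightest probe set and open ones for others. The siENG BMP-2 array is highest for all 6, and in the brightest probe sets of Ddit4 and Sesn2 siCont BMP-2 lies well below vehicle.

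In their brightest probe sets the feedback regulators Trib3 and Ppp1r15a, and also Chac1, stood higher by less than Ddit3, Ddit4 and Atf3. Trib3, a pseudokinase that restrains Atf4 and Ddit3, read 456 with siENG BMP-2, 312 with siCont BMP-2 and 206 with vehicle (0.34), and its second probe set gave 0.77. Ppp1r15a (GADD34), which directs dephosphorylation of eIF2α, had a log2 ratio of 0.65, and Chac1, which degrades glutathione, 0.39. None of these reached a ratio of 2.

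None of the genes of amino acid metabolism reached a ratio of 2 in its brightest probe set. Asns, asparagine synthetase, read 2409 with siENG BMP-2, 1500 with siCont BMP-2 and 1389 with vehicle (log2 0.47 from both of its probe sets). In serine synthesis Psat1 had a log2 ratio of 0.45, with 0.82 from its second probe set, a ratio past 2 as deposited, and Phgdh, the first enzyme, 0.08, and in mitochondrial folate metabolism Shmt2 had 0.35 and Mthfd2 0.34. Slc7a5 (0.30) and Slc3a2 (0.35), the subunits of the large neutral amino acid transporter, were close to each other. Cars, a tRNA synthetase, (-0.19) and the lipoprotein receptor Vldlr (-0.03) were the only Atf4 targets below 0, and both were above 0 as deposited. The brightest probe sets of Trib3, Phgdh, Shmt2 and Vldlr are of the _x_at kind, whose probes can match other transcripts too.

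The 6 genes with a CARE match had a median log2 ratio of 0.43, with 5 above 0 and a range of -0.03 in Vldlr to 1.13 in Herpud1. Over all genes 53.7% were above 0, with a median of 0.03. The part of this element in the ratios was not tested. Among the Atf4 targets, 15 genes had a window, 18 windows in all, and 5 of the 15 genes held the element. Most of these 15 genes, Ddit3 and Ddit4 among them, thus had no match in the windows searched. Bases outside those windows were not searched, so an element there would have been missed.

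**Figure D4:**
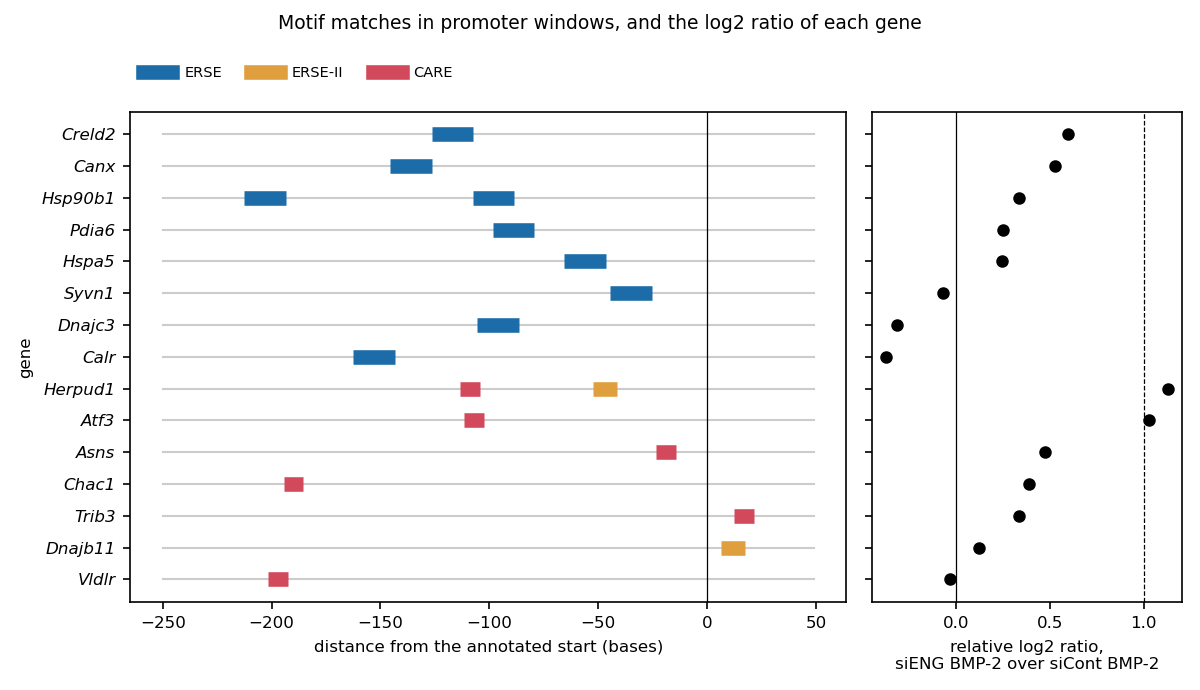
Positions of ERSE, ERSE-II and CARE matches relative to the annotated start (bases, start at 0) in promoters of the measured genes, beside each gene's relative log2 ratio with siENG. ERSE matches belong mainly to folding genes, whose ratios run from -0.37 to 0.60, and CARE matches mainly to Atf4 targets.

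Other genes of the same pathways were read from further lists. Of 88 kept, 1 had a ratio of 2 or more, against 2.32% of all genes, and none 0.5 or less, against 2.7%. The ratio was above 0 for 56 of them, against 53.7% of all genes, with a median of 0.13, so the calls were no more frequent than over all genes. The exception was Cth, the last enzyme of cysteine synthesis from methionine, which read 612 with siENG BMP-2, 212 with siCont BMP-2 and 235 with vehicle (log2 1.32). In the same list of 16 amino acid genes, Aldh18a1 was at 0.57, Cbs at -0.52 and the transporter Slc38a2 at -0.52. Among 14 tRNA synthetases, which charge tRNAs with amino acids, 13 were above 0 with a median of 0.28, led by Eprs at 0.57, while Iars was at -0.52. The list of 10 other Atf4 targets had a median of 0.21, with Bbc3 at 0.61 and Stc2 at 0.55.

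Other folding and degradation genes, 22 of them, had a median of 0.01. Sil1, a nucleotide exchange factor of Hspa5, read 463 with siENG BMP-2, 200 with siCont BMP-2 and 244 with vehicle, a log2 ratio of 0.998, just short of a ratio of 2 and past it as deposited. The other kinases and factors, 12 of them, had a median of 0.04. Creb3l1 (OASIS), a bone-associated relative of Atf6, read 289 with siENG BMP-2, 446 with siCont BMP-2 and 256 with vehicle (-0.84). The siCont BMP-2 array was the high one for Creb3l1, and siENG and vehicle were close.

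Genes known to respond to low oxygen stood high on the same array. Of 19 hypoxia genes kept, 9 stood at 2 or more (2.32% of all genes) and 1 was at 0.5 or less (2.7%), with a median of 0.999. Over vehicle, 8 of 18 stood at 2 or more (2.25% of all genes). Pdk1, a kinase that inhibits pyruvate dehydrogenase, read 656 with siENG BMP-2, 34.8 with siCont BMP-2 and 49.2 with vehicle (log2 4.03). Bnip3 read 3342 with siENG BMP-2, 450 with siCont BMP-2 and 595 with vehicle (2.68), and Ndrg1 1671 with siENG BMP-2, 331 with siCont BMP-2 and 457 with vehicle (2.13). Ankrd37 read 311 with siENG BMP-2, 4.3 with siCont BMP-2 and 14.1 with vehicle, so it was at background with siCont BMP-2 and its fold has no measured base. It is counted among the 9, and among the 8 over vehicle, but was kept only through the siENG array. Egln3 was not kept, and Ndufa4l2 was at background on the siENG and vehicle arrays. The summed signal of the hypoxia list was 36130 with siENG BMP-2, 15702 with siCont BMP-2 and 15765 with vehicle. Ero1a and Ddit4 are known hypoxia-responsive genes as well, and the part of the hypoxia genes in their ratios was not tested.

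Genes of the interferon response also stood high there. Of 21 kept, 10 had a ratio of 2 or more (2.32% of all genes) and none 0.5 or less (2.7%), with a median of 0.89. Among the 10, Oas2 (57.1 with siENG BMP-2, 12.1 with siCont BMP-2) and Gbp3 (70.4 with siENG BMP-2, 15.6 with siCont BMP-2) were kept only through the siENG array. Their folds over siCont BMP-2 thus have a base below the signal limit. Bst2 read 1404 with siENG BMP-2, 191 with siCont BMP-2 and 328 with vehicle (2.67). The summed signal was 5938 with siENG BMP-2, 2733 with siCont BMP-2 and 3450 with vehicle. Eif2ak2 (PKR), the eIF2α kinase that double-stranded RNA activates, read 325 with siENG BMP-2, 257 with siCont BMP-2 and 270 with vehicle (0.13). Mx2 was at or below the Bacillus maximum on all 3 arrays. Over vehicle, 7 of the 21 stood at 2 or more (2.25% of all genes). The part of the interferon genes in the ratios of the Atf4 targets was not tested.

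BMP-2 alone was set against vehicle in siCont cells to ask how the same genes stood without siENG. No gene of the 41 had a ratio of 2 or more, against 1.78% of all genes, and none had 0.5 or less, against 1.59%. The median log2 ratio was 0.05, with 24 above 0 against 50.1% of all genes. As deposited none stood past either limit, against 1.8% of all genes at 2 or more and 1.56% at 0.5 or less. By the robust SD, 6 genes lay above 2 (5.69% of all genes), namely Pdia4, Calr, Dnajb9, Ern1, Xbp1 and Trib3, and 2 below -2 (5.04%), Ddit4 and Sesn2. The siCont BMP-2 array is shared with the comparison above, so these ratios are not independent of it.

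Xbp1 and folding genes were among those higher with BMP-2. Xbp1 read 787 with BMP-2 and 597 with vehicle (log2 0.39), and its 4 probe sets gave 0.39, 0.53, 0.34 and 0.41. Ern1 read 146 with BMP-2 and 90.3 with vehicle (0.68), but its other probe sets gave 0.24 and -0.62. Dnajb9, which Xbp1 is known to induce, had a log2 ratio of 0.42, Pdia4 0.44 and Calr 0.23. Among folding genes 11 of 15 were above 0, with a median of 0.11.

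Of the Atf4 targets 7 of 17 were above 0 with BMP-2, near the 50.1% of all genes, and their median was -0.08. Ddit4 had a log2 ratio of -0.63 (robust SD 0.11) and Sesn2 -0.89, though its other probe set gave 0.24. Trib3 stood highest of them, at 0.59. In their brightest probe sets Ddit3 (0.01) and Atf4 (-0.03) were level, but their second brightest gave -0.56 and 0.39. Ero1a was at -0.16, with -0.07 and 0.17 from its others.

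Against vehicle, siENG BMP-2 differed by both treatments at once. Of the 41 genes 3 stood at 2 or more, Ero1a, Herpud1 and Ddit3, against 2.25% of all genes, and none at 0.5 or less, against 2.85%. The median was 0.32, with 34 above 0 (53.9% of all genes). As deposited, 6 stood at 2 or more (3.99% of all genes) and none at 0.5 or less (1.73%). Above 2 robust SDs lay 9 genes (4.55% of all genes), those 3 with Canx, Ern1, Xbp1, Ddit4, Trib3 and Asns, and none lay below -2 (4.77%). Trib3 (0.93), Ern1 (0.84), Atf3 (0.78) and Xbp1 (0.70) were next below the ratio of 2. In their brightest probe sets Trib3, Ern1 and Xbp1 were highest with siENG BMP-2 and lowest with vehicle, whereas Atf3 was lowest with siCont BMP-2. Other probe sets past the limit gave -0.04 and -0.51 for Ern1, and 1.06 for Trib3. The second brightest probe set gave 0.58 for Herpud1 and 0.14 for Ddit3, while the others of Ero1a gave 2.59 and 2.94. Dnajb9 was at -0.24 and Calr at -0.15. By role, the medians were 0.32 for folding, 0.30 for degradation, 0.42 for sensors and factors and 0.31 for Atf4 targets.

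Where a gene had several probe sets past the limit, they did not always agree in direction. In siENG BMP-2 over siCont BMP-2, 26 genes had at least 2 such probe sets. For 16 all were above 0, for Calr, Syvn1 and Vldlr all were below 0, and for Atf6, Dnajc3, Ern1, Hyou1, Sel1l, Shmt2 and Xbp1 they were mixed.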

How the data were processed

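RNA of PDL-L2 cells was hybridised to 3 Affymetrix arrays, 1 for each condition. Values were deposited by the authors as linear intensities, without logs. GCOS 1.4 is named in the submitters' processing notes, whereas the signal algorithm and the scaling between arrays are not stated there or in the methods. Signals listed at 0 (3 with vehicle, 1 with siCont BMP-2) were replaced by 0.1. The array held 45101 probe sets. The 64 controls among them were left out, and 34958 with 1 gene symbol in the platform annotation named genes.

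From each log2 ratio the median log2 ratio of all probe sets past the limit was subtracted. Robust SDs (1.4826 times the median absolute deviation) were taken in 20 bins of mean log2 signal over all probe sets but the controls. With 1 array per condition no test was possible, and the number of arrays limits the precision. Counts and medians are descriptions.

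The members and lists were chosen with earlier results of these data known. Signals were printed for genes at a ratio of 2 or more or 0.5 or less in any comparison, the 3 of each role farthest from 0, every sensor and factor, and Hspa5, Hsp90b1, Calr, Ddit3 and Asns, and up to 4 genes of each further list were named by the same measure. Eif2ak2 and further values beyond this rule were chosen after they were seen. Another scaling (as deposited, trimmed mean, quantile, lowess), signal limit (none, 75th percentile, floor) or probe set (mean of all, second brightest) was tried, 9 in all, and 1 more was added after the data were seen (the mean over probe sets past the limit). Ratios were tested on simulated data. Python 3.11.15, numpy 2.4.6, pandas 2.3.3, statsmodels 0.14.6 and matplotlib 3.10.9 were used.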

Additional observations from a re-analysis of the deposited data

How the results depend on the processing

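No paired analysis was possible because each condition had 1 array, and for the same reason no array could be left out. Scaling by trimmed mean, quantile normalization or lowess centring moved no ratio of the 41 genes by more than its robust SD. With ratios as deposited, the median log2 ratio with siENG BMP-2 was 0.54 over siCont BMP-2 and 0.54 over vehicle, and 6 genes reached a ratio of 2 over vehicle, with Ern1, Atf3 and Trib3 added. With the mean over all probe sets, 3 genes reached 2 over siCont BMP-2 (Ero1a, Atf3 and Ddit4) and 1 over vehicle (Ero1a), and 1 was at 0.5 or less in each (Pdia4, from a dim second probe set). The second brightest probe set, kept for 26 genes, gave 1 at 2 or more over siCont BMP-2 (Ero1a). The mean over probe sets past the limit, added after the data were seen, gave 3 over siCont BMP-2 and 1 over vehicle. Ero1a stood at 2 or more over siCont BMP-2 under each choice, whereas Herpud1 and Ddit3 did not with the means or the second probe set, and Ddit4 and Atf3 have no second probe set past the limit. Over siCont BMP-2, Sesn2 joined the 5 genes with ratios as deposited, without a limit or with signals raised to 23.0, and Atf3 was lost at a limit of 151.7. In the other 80 cases the counts stayed within 1.5 times and the medians within 0.1 of those reported.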
